A study of Homo sapiens with 6 samples.

Results

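Fatty acids that CPT1A admits to the mitochondrion are shortened in the matrix by beta-oxidation, and 10 genes of that machinery were followed here: ACADVL, ACADM, HADHA, HADHB, HADH, ECHS1, ECI1, DECR1, ETFA and ETFDH. They were chosen by name, and each matched 1 of the 57905 genes in the authors' table. A gene was tested if it reached 1 FPKM (counts per kilobase of exon, scaled to the library's total count) in 3 or more libraries, which held for all 10 members and for 12784 genes altogether. RNA had been sequenced from the human ovarian cancer line SKOV3 in 3 control libraries of wild-type genotype and 3 libraries of genotype CPT1Ash, in which an shRNA lowered CPT1A. Both groups were in normal culture. Gene positions given with Ensembl identifiers are those of the authors' table, whose build is not stated, and cannot be set against the GRCh38 positions of the promoter sequences. No control hairpin is named for the wild-type cells, so carrying a hairpin and losing CPT1A cannot be told apart. The labels call the libraries biological replicates without saying whether the 3 shRNA libraries came from separate knockdowns, and p-values measure the spread between these libraries. The column headers give all 3 shRNA libraries the same shRNA mark, so they may share a hairpin. Any effect of that hairpin on other transcripts would then be common to all 3 and could not be told from loss of CPT1A.

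In each turn of beta-oxidation an acyl-CoA dehydrogenase makes a double bond, a hydratase adds water, a hydroxyacyl-CoA dehydrogenase oxidises the product, and a thiolase releases acetyl-CoA. Separate dehydrogenases serve very long, medium and short chains, and a trifunctional complex on the inner membrane carries out the later steps for long chains. Unsaturated chains need an isomerase and a reductase as well. Electrons from the first step pass through electron transfer flavoprotein (ETF) and its membrane dehydrogenase to ubiquinone. Some tumours use this route as a source of acetyl-CoA and reducing power.

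The knockdown was present in every shRNA library. CPT1A, the gate of long-chain import, was at 6.70, 8.06 and 8.0 FPKM in control replicates 1 to 3 and at 2.16, 2.00 and 1.96 FPKM in shRNA replicates 1 to 3. The fitted log2 change was -1.97 ± 0.09 (SE), with an edgeR adjusted p of 3.3e-06, and the exact two-sided permutation test gave 0.1, the smallest p that 3 against 3 libraries allow. Libraries held 15740143 to 22271565 counts. On the first principal component of all tested genes control replicate 2 was at -17.7, the other control libraries at -36.0 and -34.6, and the shRNA libraries at 26.5 to 32.9. Cells carried epithelial markers at a summed 1527 to 1876 FPKM in control and 1043 to 1193 FPKM in shRNA libraries, over 6 genes. The 5 fibroblast markers summed to 0.85 to 1.27 FPKM in control and 0.11 to 0.29 FPKM in shRNA libraries. The 5 immune markers summed to 0.48 to 0.51 FPKM in control and 0.22 to 0.40 FPKM in shRNA libraries, and the 3 endothelial markers found in the table to 0.16 to 0.20 and 0.34 to 0.59 FPKM. None of these marker sums overlapped between groups, and their part in the results was not tested. Single markers did not all follow their sum: KRT18, EPCAM and ERBB2 overlapped between groups. Most of the endothelial sum was KDR, at 0.11 to 0.17 FPKM in control and 0.31 to 0.57 FPKM in shRNA libraries, while VWF and CDH5 did not exceed 0.03 FPKM. Most of the immune sum was CD68, at 6 to 20 counts per library, and CD3E was listed at 0 throughout. LUM made up most of the fibroblast sum, at 5 to 67 counts per library. Among ovarian lineage markers PAX8 was at 80.2 to 92.9 FPKM in control and 55.2 to 64.7 FPKM in shRNA libraries. WT1 went the other way, at 0.57 to 0.82 FPKM in control and 0.87 to 1.24 FPKM in shRNA libraries, and MUC16 did not exceed 0.03 FPKM.

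Of the 10 beta-oxidation genes 2 were called, both lower in shRNA libraries: ECHS1, the short-chain enoyl-CoA hydratase, and ECI1, the enoyl-CoA isomerase. That is 20% of the members, against 27.4% of all tested genes called in either direction at an edgeR adjusted p under 0.05. By direction, 13.7% of all genes were called lower and 13.8% higher, so the members' share was near the background. ETFDH, HADH and DECR1 lay close to the threshold. In such bulk libraries fewer cells with a transcript and less of it per cell cannot be told apart. The trifunctional subunits HADHA and HADHB, both acyl-CoA dehydrogenases and ETFA each had a fitted log2 change within 0.1 of zero. These are 5 of the 10 members, against 18.8% of all tested genes within that band, a contrast that was not tested. The median log2 change was -0.04 over the 10 members and -0.01 over all tested genes, and the median absolute change was 0.19 and 0.29.

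**Figure D1:**
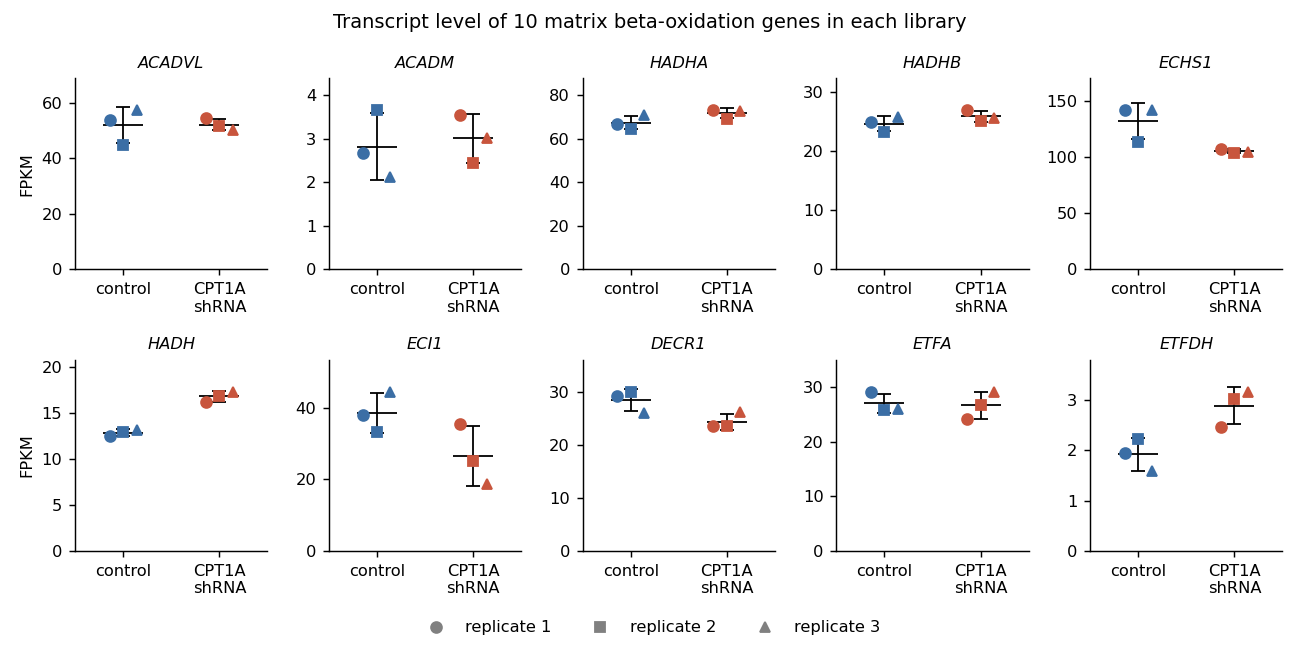
FPKM (vertical axis, from 0, with its own range in each panel) of the 10 genes in 3 control libraries (blue) and 3 CPT1A shRNA libraries (red). Symbols mark replicates, horizontal bars means and whiskers SD; HADH and ETFDH are higher and ECHS1 is lower in all shRNA libraries, while ECI1 runs from 18.8 to 35.6 FPKM within the shRNA group.

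Promoter sequence is given early for the members on which the comparison turns: the divergent pair HADHA and HADHB, whose levels kept a near-constant ratio, the lower genes ECHS1 and ECI1, and HADH, whose groups were apart. Sequences are from RefSeq on GRCh38.p14, in the table of windows from 250 bases before to 50 bases after each start. HADHA and HADHB are transcribed away from each other, and 306 bases lie between their listed starts. The stretch that their windows share, chr2:26244689-26244882, is printed on the plus strand, and 150 bases ending just before the start are printed for the others in the direction of transcription. These are chr10:133373355-133373504 on the minus strand for ECHS1, chr16:2251588-2251737 on the minus strand for ECI1 and chr4:107989739-107989888 on the plus strand for HADH. Capitals mark the GC boxes and the CCAAT box found on either strand.
HADHA-HADHB: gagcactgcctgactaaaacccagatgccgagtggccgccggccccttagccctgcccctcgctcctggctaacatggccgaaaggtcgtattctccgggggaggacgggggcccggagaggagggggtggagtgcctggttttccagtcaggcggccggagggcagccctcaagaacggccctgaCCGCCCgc
ECHS1: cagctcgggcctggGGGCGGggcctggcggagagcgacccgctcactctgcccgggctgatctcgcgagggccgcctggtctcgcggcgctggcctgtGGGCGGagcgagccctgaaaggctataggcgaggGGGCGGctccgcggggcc
ECI1: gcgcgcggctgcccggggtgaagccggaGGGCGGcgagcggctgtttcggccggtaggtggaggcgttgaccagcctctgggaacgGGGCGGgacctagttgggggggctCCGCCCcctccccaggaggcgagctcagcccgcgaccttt
HADH: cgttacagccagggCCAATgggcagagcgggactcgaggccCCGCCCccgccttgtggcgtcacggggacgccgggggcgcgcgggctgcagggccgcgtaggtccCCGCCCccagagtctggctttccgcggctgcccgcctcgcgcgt

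Windows of 8 of the 10 genes were searched. None was available for ETFDH, and member windows on chromosome 8, where DECR1 lies, were left out of the search by choice. That chromosome was not left out of the human windows used for comparison. ACADVL and HADH had a second window each, giving 10 windows, searched on both strands. A GC box, GGGCGG, was present in a window of all 8 genes, in 8 of the 10 windows, against 44.95% of 35116 human promoter windows of the same length. The only HADHA match is also a HADHB match, since it lies in the stretch their windows share, so these counts hold that site for both genes. ECHS1 held 6 GC box matches and ECI1 held 3, and ACADM, which was not called, held more than ECI1. Matches per window were not counted over all promoters. The box CCAAT was found in HADH and ETFA (34.6% of all windows) and the ETS core CCGGAAG in ECI1, outside the stretch printed (10.3%). No match was found in these windows for the NRF1 core GCGCATGC (3.05% of all windows), the E-box CACGTG (7.26%) or the oestrogen-related receptor element AAGGTCA (3.92%). The classical PPAR element, searched as an exact direct repeat, had none either (0.02%). At such shares 10 windows of any genes would often hold no match, so these absences say little about the members. Inexact matches and sites outside the windows were not searched. A TATAAA was present, on the strand opposite to transcription, in 1 of the ACADVL windows and in no other member window (11.5% of all windows). GC content was 78.0% in the ECHS1 window, 71.7% in that of ECI1 and 74.3% in the first HADH window, against a median of 58.7%. The second HADH window, at 40.7%, and 1 ACADVL window, at 52.7%, lay below that median, and the remaining member windows lay above it. Neither of these below-median windows held a GC box, and every other member window did. The human windows used for comparison were not matched to the members for GC content.

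The 2 acyl-CoA dehydrogenases that open the cycle differed widely in level and little between groups. ACADVL, which acts on very long chains, was at 53.8, 44.7 and 57.4 FPKM in control replicates 1 to 3 and at 54.4, 51.8 and 50.3 FPKM in shRNA replicates 1 to 3. The groups overlapped, and the lowest value was that of control replicate 2. The log2 change was -0.07 ± 0.13 (SE; edgeR adjusted p = 0.705), and it was 0.01 when libraries were scaled by their totals alone. ACADM, the medium-chain enzyme, was at 2.68, 3.66 and 2.13 FPKM in control and at 3.56, 2.45 and 3.03 FPKM in shRNA libraries. Here control replicate 2 was the highest library and control replicate 3 the lowest, so that the control group spanned the shRNA group. ACADM had only 184 to 390 counts per library, and its log2 change of 0.03 ± 0.26 (SE; edgeR adjusted p = 0.932) is the least precise of the 10 apart from ECI1. The 3' part of ACADM overlaps RABGGTB, a subunit of a prenyltransferase, on the same strand over 1382 bases, and RABGGTB fell (log2 change -0.50, edgeR adjusted p = 0.045). Whether reads were shared there was not tested. ACADVL overlaps DLG4, a synaptic scaffold gene on the other strand, over 2578 bases, and DLG4 was not called (log2 change 0.22, edgeR adjusted p = 0.376). In the authors' table ACADVL (ENSG00000072778) lies at chr17:7120444-7128592 on the plus strand and ACADM (ENSG00000117054) lies at chr1:76190036-76253260 on the plus strand.

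HADHA and HADHB, which encode the alpha subunit (hydratase and dehydrogenase) and the beta subunit (thiolase) of the trifunctional protein, had the smallest fitted changes of the 10. HADHA was at 66.6, 64.5 and 70.6 FPKM in control and at 73.0, 68.8 and 72.8 FPKM in shRNA libraries. HADHB was at 24.9, 23.3 and 25.8 FPKM in control and at 26.9, 25.2 and 25.5 FPKM in shRNA libraries. Both groups overlapped in each gene, and in both genes control replicate 2 was the lowest of the 6. The log2 change was 0.02 ± 0.06 for HADHA (edgeR adjusted p = 0.918) and -0.0033 ± 0.0699 for HADHB (edgeR adjusted p = 0.984). The sign of the latter turned under median-ratio factors, library totals, DESeq2, limma and the length correction, with values up to 0.07. Their ratio of FPKM within a library was 2.68, 2.78 and 2.73 in control and 2.71, 2.74 and 2.85 in shRNA libraries, a span narrower than that of either other pair compared. Both genes overlap over 1557 bases on opposite strands in the authors' table, and whether counting used strand is not given in the labels. The pseudogene HADHAP1 had 3 counts over all libraries, against 31112 for HADHA. In the authors' table HADHA (ENSG00000084754) lies at chr2:26413504-26467594 on the minus strand and HADHB (ENSG00000138029) lies at chr2:26466038-26513336 on the plus strand.

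ECHS1, which hydrates short-chain enoyl-CoA in fatty acid and valine breakdown, was the most abundant of the 10 transcripts per length and was called lower. It was at 141, 113 and 142 FPKM in control replicates 1 to 3 and at 107, 104 and 105 FPKM in shRNA replicates 1 to 3. The groups were apart. Control replicate 2 was the nearest control library to the shRNA group. The 3 shRNA libraries differed by no more than counting error allows (chi-square per degree of freedom 0.60), whereas the control libraries differed by more (99.2). ECHS1 fell 1.32-fold, with a log2 change of -0.40 ± 0.13 (SE) and an edgeR adjusted p of 0.0246. Without control replicate 2 the log2 change was -0.52 (edgeR adjusted p = 0.000908). ECHS1 no longer passed when control replicate 1 (edgeR adjusted p = 0.132) or 3 (0.0638) was removed, or when shRNA replicate 1, 2 or 3 was (0.0562, 0.102 and 0.0656). In the authors' table ECHS1 (ENSG00000127884) lies at chr10:135175984-135187193 on the minus strand.

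Fitted changes moved with gene length in these libraries. When the tested genes were ordered by exonic length and divided into 4 groups of 3196, the median log2 change was -0.16, -0.09, 0.03 and 0.15 from shortest to longest. ECHS1, with 1617 exonic bases, was the only member in the shortest group, and the others held 5, 4 and 0 members. With that trend removed the log2 change of ECHS1 was -0.22 and it was not called (edgeR adjusted p = 0.137). Under the same correction ECI1 was at -0.53 (edgeR adjusted p = 0.054), and HADH and ETFDH were called higher, at 0.41 (edgeR adjusted p = 0.02) and 0.53 (edgeR adjusted p = 0.0383).

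HADH, the dehydrogenase for medium and short hydroxyacyl-CoA, had groups that were well apart. It was at 12.5, 12.9 and 13.2 FPKM in control and at 16.2, 16.8 and 17.3 FPKM in shRNA libraries. Every shRNA library exceeded every control library, and within each group the counts varied little beyond counting error (chi-square per degree of freedom 1.08 in control and 1.41 in shRNA libraries). The log2 change of 0.31 ± 0.04 (SE), or 1.24-fold, missed the threshold (edgeR adjusted p = 0.0714). It was called in 4 of 15 alternatives: library totals alone, both limma fits and the length correction. Among the 15 the log2 change ran from 0.29 to 0.41 and the adjusted p from 0.0186 to 0.234. No other gene in the table overlaps HADH or starts within 2 kb of it on the other strand. By the authors' annotation HADH (ENSG00000138796) lies at chr4:108910870-108956331 on the plus strand.

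ECI1 and DECR1 serve unsaturated chains. ECI1, which moves the double bond into the position the cycle needs, was at 38.0, 33.2 and 44.5 FPKM in control replicates 1 to 3 and at 35.6, 25.2 and 18.8 FPKM in shRNA replicates 1 to 3. The groups overlapped: shRNA replicate 1 lay between control replicates 2 and 1. Within the shRNA group the highest value was 1.897 times the lowest, the widest spread of any member in either group, and chi-square per degree of freedom was 159. ECI1 fell 1.53-fold, at a log2 change of -0.61 ± 0.30 (SE) and an edgeR adjusted p of 0.0335. The log2 change was -0.88 without shRNA replicate 1 (edgeR adjusted p = 0.00343) and -0.73 without control replicate 2 (edgeR adjusted p = 0.0156). ECI1 no longer passed when control replicate 1 (edgeR adjusted p = 0.109) or 3 (0.0811) or shRNA replicate 2 (0.082) or 3 (0.114) was removed, or under library totals alone (0.0691) and in both limma fits (0.0768 and 0.082). RP11-304L19.11, on the other strand, overlaps ECI1 over 1332 bases and was not called (edgeR adjusted p = 0.491). In the authors' table ECI1 (ENSG00000167969) lies at chr16:2289396-2302301 on the minus strand.

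DECR1, the dienoyl-CoA reductase, was at 29.3, 30.1 and 26.2 FPKM in control and at 23.6, 23.7 and 26.2 FPKM in shRNA libraries. Control replicate 3 and shRNA replicate 3 met at 26.17 and 26.24 FPKM, so the groups touched on that scale, while on trimmed-mean-scaled CPM these 2 libraries were at 96.4 and 91.0 and the groups were apart. The log2 change of -0.29 ± 0.07 (SE) did not pass (edgeR adjusted p = 0.0712), and it passed in none of the 15 alternatives, with adjusted p from 0.0556 to 0.271. The start of DECR1 overlaps NBN, a DNA repair gene on the other strand, over 1824 bases, and NBN was not called (log2 change -0.03, edgeR adjusted p = 0.909). In the authors' table DECR1 (ENSG00000104325) lies at chr8:91013633-91064320 on the plus strand.

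Electron transfer out of the cycle showed one even and one uneven member. ETFA, the alpha subunit of ETF, was at 29.1, 25.9 and 26.1 FPKM in control and at 24.2, 26.7 and 29.1 FPKM in shRNA libraries. The shRNA range enclosed the control range, and the log2 change was -0.09 ± 0.11 (SE; edgeR adjusted p = 0.604). ETFDH, the iron-sulphur flavoprotein that passes the electrons to ubiquinone, was at 1.94, 2.23 and 1.59 FPKM in control and at 2.47, 3.03 and 3.17 FPKM in shRNA libraries. All shRNA libraries lay above all control libraries. The fitted difference was 1.43-fold, a log2 change of 0.52 ± 0.17 (SE), with an edgeR adjusted p of 0.0501, just outside the threshold. It passed in 6 of 15 alternatives, among them DESeq2 (adjusted p = 0.036) and the fit without control replicate 2 (edgeR adjusted p = 0.0216), and its adjusted p ranged from 0.0216 to 0.164. ETFDH rested on 137 to 268 counts per library. Its ends overlap C4orf46 over 131 bases and PPID, a cyclophilin with 20.1 ± 4.8 and 20.5 ± 3.8 FPKM in control and shRNA libraries (SD, n = 3 each), over 490 bases, both on the other strand. Neither was called (edgeR adjusted p = 0.364 and 0.886). The table places these genes as follows: ETFA (ENSG00000140374) lies at chr15:76507696-76603813 on the minus strand and ETFDH (ENSG00000171503) lies at chr4:159593277-159630775 on the plus strand.

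Of the members 4, or 40%, had groups that did not overlap on trimmed-mean-scaled CPM (ECHS1, DECR1, HADH and ETFDH), against 42.2% of all tested genes. The fitted changes of the 10 members and of the other listed genes are plotted side by side.

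**Figure D2:**
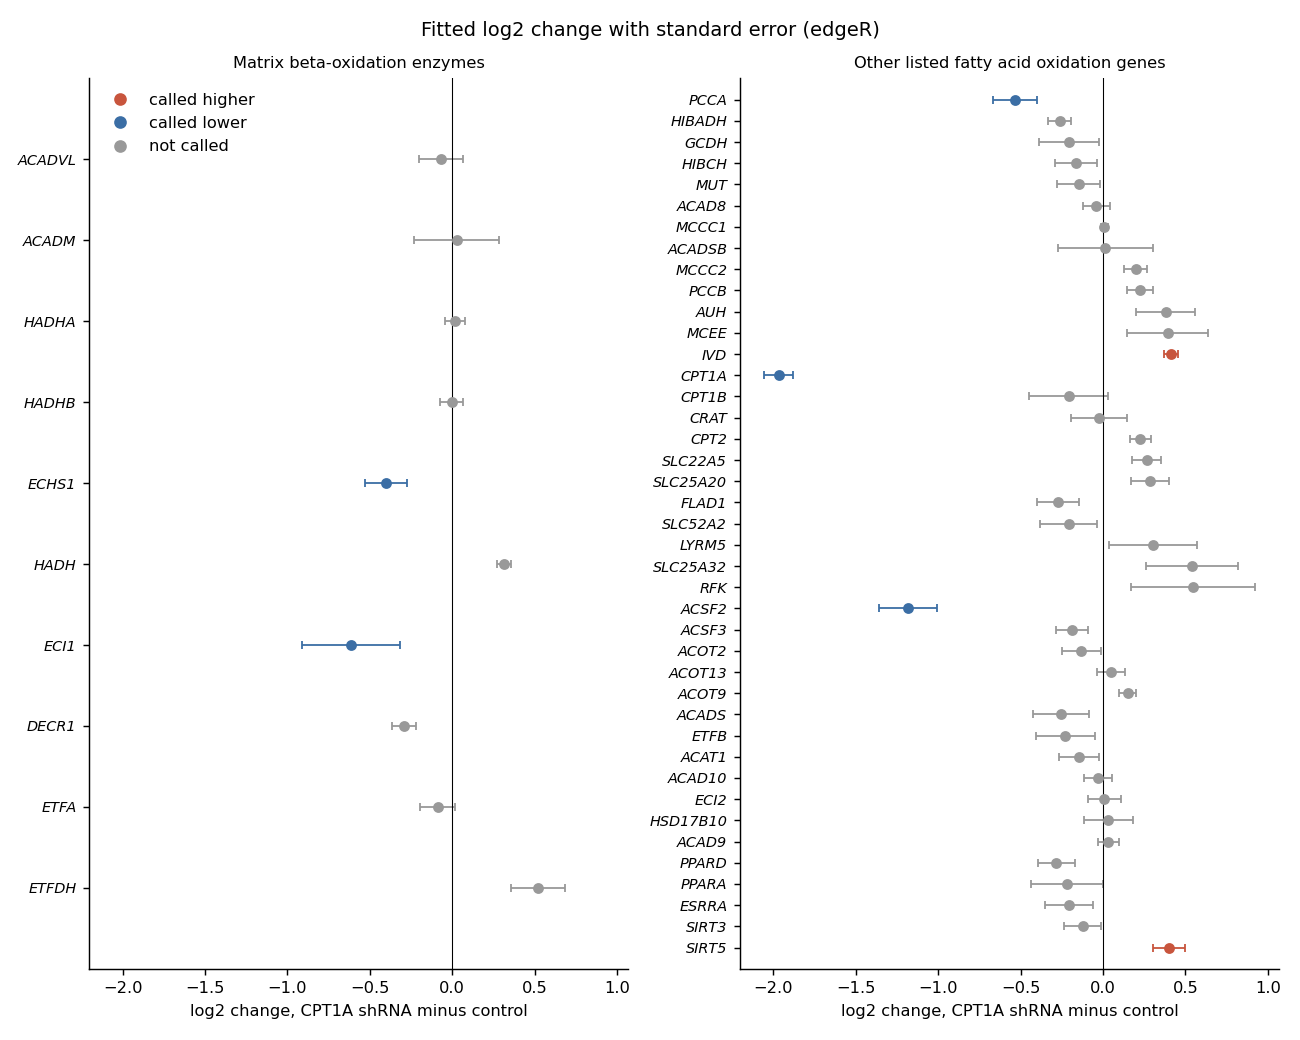
Fitted log2 change, CPT1A shRNA minus control (horizontal axis), with its standard error for the 10 matrix enzymes (left) and the 41 tested genes of 6 related lists (right), coloured by call. ECHS1 and ECI1 are the called members at -0.40 and -0.61; CPT1A at -1.97 and ACSF2 at -1.18 lie farthest from zero.

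The levels of the 10 transcripts spanned a wide range. In deposited FPKM the order of mean levels over all libraries was ECHS1, HADHA, ACADVL, ECI1, ETFA, DECR1, HADHB, HADH, ACADM and ETFDH. Neighbours in this order did not overlap within either group from ECHS1 down to ECI1 or from HADHB to ACADM. ETFA and DECR1 overlapped in both groups, as did ACADM and ETFDH, while ECI1 and ETFA, and DECR1 and HADHB, overlapped in shRNA libraries only. ECHS1 alone made up 32.05% to 35.35% of the summed FPKM of the 10 genes in control and 29.2% to 29.9% in shRNA libraries. The share of ACADM and of ETFDH was at most 1.03% and 0.903% in any library. The sum itself was 354 to 409 FPKM in control and 347 to 367 FPKM in shRNA libraries, and the groups overlapped.

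The deposited FPKM divides by all exonic bases annotated to a gene, which was 1.00 times the length of the principal coding transcript of GENCODE 29 for ECHS1 and 2.91 times for DECR1. Recomputed from the same counts per kilobase of that transcript, the control level was 132 ± 16 for ECHS1, 109 ± 14 for ACADVL and 87.9 ± 4.0 for HADHA (SD, n = 3 each). DECR1 was then at 82.9 ± 6.1 and ECI1 at 80.9 ± 11.9, and ACADVL stood above HADHA. HADHB was at 49.8 ± 2.6 and HADH at 20.7 ± 0.6. ACADM at 5.15 ± 1.42 and ETFDH at 2.63 ± 0.44 were lowest by either length.

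**Figure D3:**
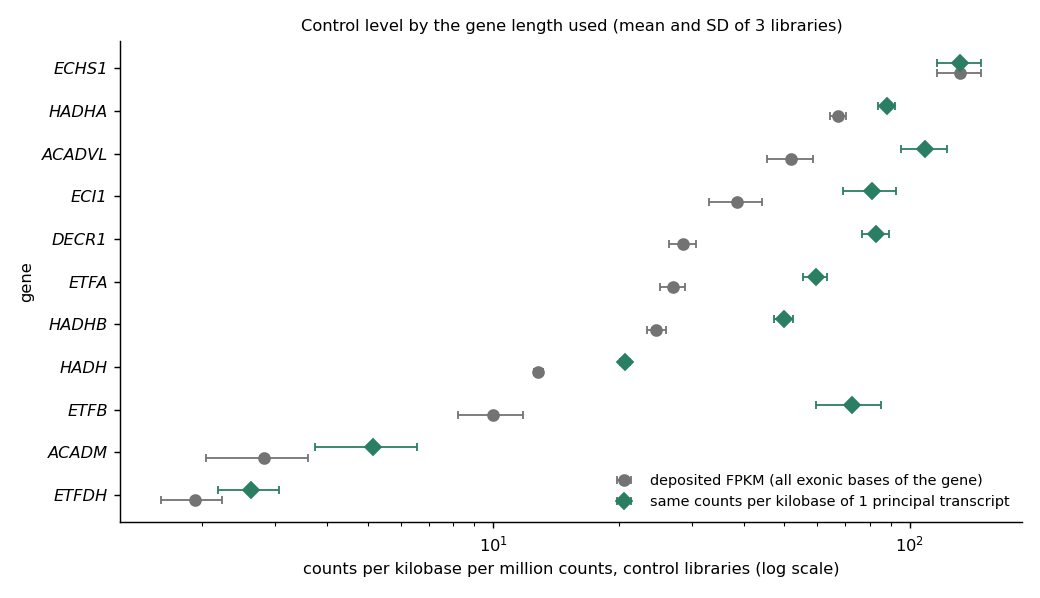
Mean control level with SD over 3 libraries (log axis, counts per kilobase, scaled to the library total) by the deposited exonic length (grey circles) and by 1 principal transcript per gene (green diamonds), with ETFB added. ECHS1 is unmoved at 132, ETFB moves from 9.99 to 72.5, and ACADM and ETFDH remain lowest.

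Levels of partner genes were also set against each other within each library, where library scaling has no effect. The log2 ratio of HADHA to HADHB was 1.45 ± 0.03 in control and 1.47 ± 0.04 in shRNA libraries (SD, n = 3 each), a difference of 0.02. The ratio of ETFA to ETFB, the 2 subunits of ETF, was 2.76, 3.23 and 2.28 in control and 2.57, 2.95 and 3.42 in shRNA libraries. These ratios depend on the exonic length used for ETFB, 6526 bases against 900 for its principal transcript. Their difference between groups, 0.12 on the log2 scale, does not. The ratios of the other pairs depend on length in the same way. HADHB has 4133 exonic bases against 2044 for its principal transcript, and HADHA has 3971 against 3037. ACADVL exceeded ACADM 20.1-, 12.2- and 26.9-fold in control and 15.3-, 21.1- and 16.6-fold in shRNA libraries, a log2 difference of -0.10. Over the 3 pairs the exact two-sided permutation p was 0.6, 0.6 and 0.9 (0.9 for each after Benjamini-Hochberg adjustment), and 0.1 is the smallest these groups allow.

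**Figure D4:**
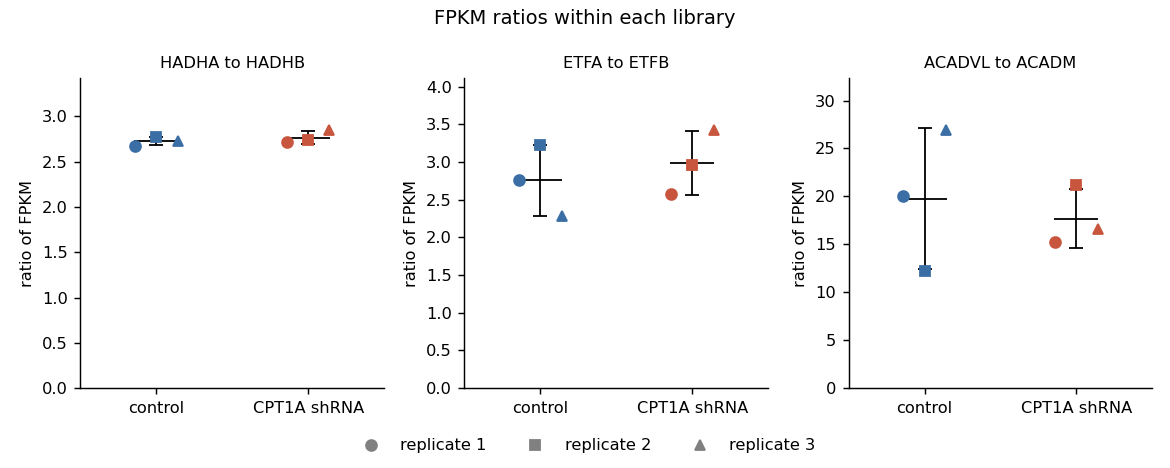
Ratio of FPKM within each library (vertical axis, from 0) for 3 pairs in control (blue) and CPT1A shRNA libraries (red); symbols are replicates, bars means and whiskers SD. HADHA to HADHB stays between 2.68 and 2.85 in all 6 libraries, while ACADVL to ACADM runs from 12.2 to 26.9 within the control group.

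The rest of the oxidation machinery was read from 6 lists of 49 genes, of which 41 were tested, 2 called higher and 3 lower. That is 12.2% of the tested genes of these lists, against 27.4% of all tested genes. CPT1A, the target of the shRNA, is 1 of the 3 lower genes and is counted in that share. With all 6 libraries, none of the 7 tested genes among 10 other matrix enzymes was called by edgeR, DESeq2 or limma, 0 had an unadjusted edgeR p under 0.05, and their median log2 change was -0.03. Without control replicate 2 edgeR called 1 of them, ETFB. HSD17B10, another hydroxyacyl-CoA dehydrogenase, led them at 98.7 ± 14.5 and 106.3 ± 2.5 FPKM in control and shRNA libraries (SD, n = 3 each; edgeR adjusted p = 0.876). Below the minimum were ACAA2, the medium-chain thiolase, at 0.58 to 0.81 FPKM, ACADL at up to 0.24 FPKM and ACAD11 at up to 0.39 FPKM.

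Of 13 genes for branched-chain and odd-chain acyl-CoA 1 was higher and 1 lower. IVD, the isovaleryl-CoA dehydrogenase of leucine breakdown, rose from 16.51, 16.01 and 15.8 FPKM in control to 22.5, 23.3 and 21.8 FPKM in shRNA libraries (log2 change 0.41 ± 0.04 SE, edgeR adjusted p = 0.01). IVD, whose electrons also leave through ETF, passed in 13 of 15 alternatives. PCCA, the biotin-carrying subunit of propionyl-CoA carboxylase, fell from 2.83, 3.17 and 2.32 FPKM to 2.13, 2.08 and 1.82 FPKM (log2 change -0.53 ± 0.13 SE, edgeR adjusted p = 0.0375), a call kept in 5 of 15 alternatives. Its partner PCCB was at 6.57 ± 0.43 and 8.08 ± 0.27 FPKM (SD, n = 3 each; edgeR adjusted p = 0.19). HIBADH had the highest mean of the uncalled genes, at 42.0 ± 1.8 and 36.8 ± 2.8 FPKM (edgeR adjusted p = 0.097).

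In the carnitine shuttle, 6 of 7 genes were tested and only CPT1A was called. CRAT, which moves acetyl groups on carnitine, was the most abundant of the others, at 20.5 ± 2.4 and 21.2 ± 3.4 FPKM (SD, n = 3 each; edgeR adjusted p = 0.908). Among mitochondrial thioesterases and synthetases 1 of 5 tested genes was called: ACSF2, an acyl-CoA synthetase, fell from 6.41, 5.44 and 6.45 FPKM to 3.19, 3.01 and 2.27 FPKM (2.27-fold, edgeR adjusted p = 0.000326). ACOT2, a matrix acyl-CoA thioesterase, was at 25.7 ± 2.7 and 24.7 ± 2.2 FPKM (edgeR adjusted p = 0.484).

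Acyl-CoA dehydrogenases and ETF carry FAD, and none of the 5 tested genes of flavin supply and ETF partners was called in the reported edgeR fit. Of these 2, RFK and SLC25A32, had an unadjusted p under 0.05 there and were called by DESeq2, and limma called 0. Over the 15 alternatives RFK was called in 5 and SLC25A32 in 6, and without control replicate 2 edgeR called both of them and also FLAD1 and SLC52A2. SLC52A2, a riboflavin transporter, had 32.0 ± 5.7 and 29.2 ± 0.9 FPKM (SD, n = 3 each; edgeR adjusted p = 0.295). Of 7 regulators and deacylases 5 were tested and 1 was called. SIRT5, the mitochondrial desuccinylase, rose from 4.75, 4.73 and 3.93 FPKM to 6.45, 5.69 and 6.43 FPKM (log2 change 0.40 ± 0.10 SE), with an edgeR adjusted p of 0.0498 and the call kept in 6 of 15 alternatives. ESRRA, a nuclear receptor that drives oxidative genes, was at 15.2 ± 2.0 and 13.9 ± 1.0 FPKM (edgeR adjusted p = 0.311).

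**Figure D5:**
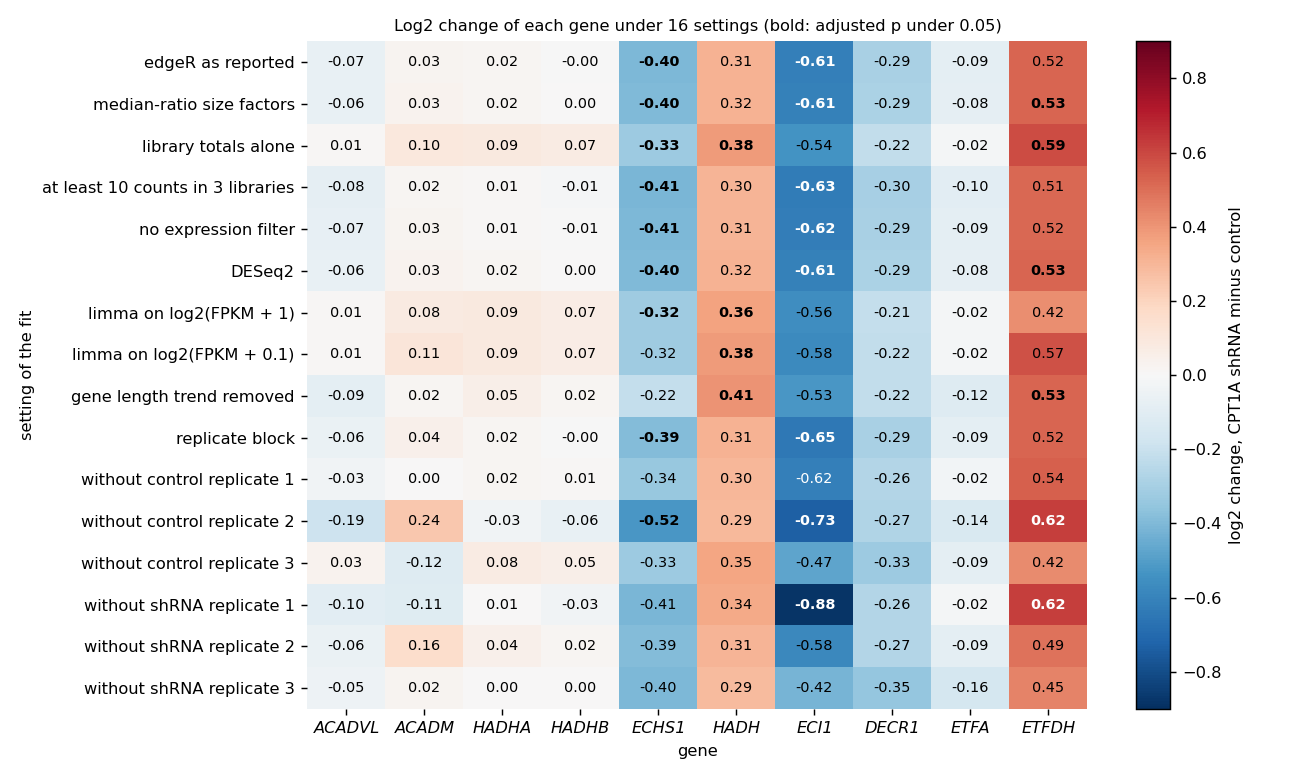
Log2 change, CPT1A shRNA minus control, of each gene (columns) under the reported fit and 15 alternatives (rows), coloured from blue (lower) to red (higher), with bold type at an adjusted p under 0.05. ECHS1, ECI1 and DECR1 are negative and HADH and ETFDH positive in every row, while bold type moves between rows.

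The direction of change of the 5 members farthest from zero was thus the same in all 16 fits plotted, and the call was not. Those 5 were picked by that distance in the same libraries that the fits reused. Their constant sign is therefore no independent check of direction. ECHS1 was called in 8 of 15 alternatives, ECI1 in 7, ETFDH in 6, HADH in 4 and DECR1 in none.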

How the data were processed

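RNA-seq of 6 SKOV3 libraries was analysed from 1 table. It holds whole-number counts per gene as deposited by the authors, and FPKM values that the authors made from them per kilobase of exonic length, scaled to the library total; this formula returned 100% of the deposited FPKM within 0.0051. The exonic length (other columns) is in bases, per the file headers. The submitters' processing notes list, without roles, HTSeq 0.6.1, DESeq2, cutadapt 1.9.1 and HISAT2 2.0.1. No source used here gives the genome build of the table's coordinates; the notes name a mouse build although the identifiers are human. Per the labels, mRNA was isolated with a poly(A) module or an rRNA removal kit, and strand is not mentioned.

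The 12784 genes that reached 1 FPKM in 3 or more libraries had their counts scaled by trimmed means (TMM) and were tested with edgeR 4.0.16 (quasi-likelihood F test, R 4.3.3), with Benjamini-Hochberg adjustment over all of them and a threshold of 0.05; the edgeR test was tested on simulated data. SE are those of the difference of mean log2 CPM with a prior count of 2. Ratios were compared by exact permutation. Alternatives used DESeq2 1.42.0, limma 3.58.1, other scalings and filters, a length correction, a replicate block and fits without each library. Members and lists were chosen with earlier results of these data known; members, called list genes, the most abundant uncalled gene of each list, and tested genes overlapping members or starting within 2 kb on the other strand were named; such genes under the expression minimum were left unnamed. PPARGC1B, ACAA2, ACADL, ACAD11, PCCB, ETFB, FLAD1, PPARGC1A, RFK and SLC25A32 were named after their values were seen. So were HADHAP1 and the markers KRT18, EPCAM, ERBB2, VWF, CDH5, KDR, CD68 and LUM. Chi-square values compare counts of 1 group with scaled library sizes; counting error alone gives about 1.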

Additional observations from a re-analysis of the deposited data

How the results depend on the processing

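CPT1A kept its call in all 15 alternatives. The count of called members, 2 as reported, was 1 under limma on log2(FPKM + 0.1), 2 or 3 under the other settings on all libraries, and 0 to 3 with a library left out. It was 0 without control replicate 1, control replicate 3, shRNA replicate 2 or shRNA replicate 3. The 5 other listed genes called became 2 to 11 with a library left out: 3 without control replicate 1, 11 without control replicate 2, 2 without shRNA replicate 2 and 3 without shRNA replicate 3. The cause was not tested. Over all 12784 tested genes, 3509 calls became 1882, 5050 and 3408 when control replicate 1, 2 or 3 was removed. They became 2818, 2060 and 2634 when shRNA replicate 1, 2 or 3 was.

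Signs turned only for members and ratios whose reported log2 value was near zero. Such values turn most easily and the fits share libraries, so this does not test the direction of the other members. ACADVL was at 0.0077 with library totals, at 0.0127 and 0.0131 in limma with pseudocounts 1 and 0.1, and at -0.1854 to 0.0326 with a library left out. HADHB was at 0.0003 with median-ratio factors, 0.0708 with library totals, 0.0004 in DESeq2, 0.0674 and 0.0698 in limma, 0.0209 with the length correction and -0.0645 to 0.0547 with a library left out. With a library left out ACADM ran from -0.1193 to 0.2398 and HADHA from -0.0335 to 0.0764, and the log2 ratio difference ran from -0.0020 to 0.0335 for HADHA to HADHB, from -0.0102 to 0.24 for ETFA to ETFB and from -0.41 to 0.16 for ACADVL to ACADM. Over all genes the median log2 change was -0.01 as reported and 0.06 with library totals, where 61.8% of calls were higher, against 50.2%. The split was 60.5% and 60.7% in limma.

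Deviations of same-numbered control and shRNA libraries from their group means had r of -0.07, 0.01 and -0.25, against -0.16 to 0.21 for libraries of different number. With deviations from means of only 3 libraries, these r values cannot settle whether the numbers pair the libraries. With a replicate block 2 members were called, ECHS1 (edgeR adjusted p = 0.0364) and ECI1 (edgeR adjusted p = 0.00375), and 3261 genes in all. ACADM and ETFDH had 137 to 390 counts per library, and both varied between replicates by more than counting error (chi-square per degree of freedom 3.62 to 17.2).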

Other observations

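PPARGC1B, which encodes a coactivator of oxidative genes, was below the expression minimum and so in no comparison above. It was listed at 0.32, 0.46 and 0.25 FPKM in control and at 1.00, 1.04 and 0.90 FPKM in shRNA libraries, and the groups did not overlap. It was called in the 2 fits with a looser filter. Its relative PPARGC1A was listed at 0.14, 0.14 and 0.04 FPKM in control and at 0.02, 0.02 and 0.04 FPKM in shRNA libraries. The groups met at 0.04 FPKM, and the gene had only 3 to 33 counts per library. With no expression filter, the only fit that held PPARGC1A, it was called lower.

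RFK, which phosphorylates riboflavin, was at 16.7, 20.8 and 10.1 FPKM in control replicates 1 to 3 and at 18.2, 22.6 and 31.7 FPKM in shRNA replicates 1 to 3. SLC25A32, a mitochondrial carrier of folate or FAD, was at 7.17, 9.78 and 5.93 FPKM in control and at 8.82, 11.7 and 14.3 FPKM in shRNA libraries. Groups overlapped in both genes, and neither was called in the reported edgeR fit (adjusted p = 0.0995 and 0.06), while RFK was called in 5 and SLC25A32 in 6 of 15 alternatives.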
